A study of Mus musculus with 3 samples.

Results

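The insulin-like growth factor (IGF) genes measured here are the ligand Igf1, its receptor Igf1r and 6 binding protein genes, Igfbp2, Igfbp3, Igfbp4, Igfbp5, Igfbp6 and Igfbp7. They were chosen by gene symbol, and are 8 of the 32285 genes counted in single cells from mouse aorta carrying the human alleles APOE2, APOE3 or APOE4. All 8 were detected. In every mouse the endogenous Apoe gene had been replaced at its own locus by 1 of these alleles, on a C57BL/6J background. All mice were males that received a Western diet with 42% fat and 0.2% cholesterol for 16 weeks from 12 weeks of age. The aorta between the arch and the iliac bifurcation was digested with collagenases and elastase, so the arch and the descending aorta entered the same suspension. Suspensions were pooled by genotype, from 6 mice for APOE2, 5 for APOE3 and 7 for APOE4, and every pool gave 1 droplet library. The study used the libraries to compare vascular cells between the 3 human alleles, of which APOE3 is the common reference.

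IGF1 is a secreted growth factor that signals through the receptor tyrosine kinase encoded by Igf1r, and in arteries this signal is known to promote the growth and survival of smooth muscle cells. IGF binding proteins are secreted carriers that hold IGFs away from the receptor, release them after cleavage by proteases, and in part act on cells without IGFs. The liver makes most of the circulating IGF1, whereas macrophages and fibroblasts are known local sources in tissues.

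In these libraries the ligand and the binding proteins were divided between cell classes. Fibroblast-like and macrophage-like cells carried Igf1, fibroblast-like cells carried Igfbp3, Igfbp4, Igfbp5 and Igfbp6, and smooth muscle-like cells carried Igfbp2 and the highest levels of Igfbp7, while Igf1r was found in all the main classes. Between the libraries, Igfbp2 and Igfbp4 were lowest in APOE4 smooth muscle-like cells, though not among the Hox positive cells of the descending aorta, Igfbp3 was highest and Igfbp5 lowest in APOE2 fibroblast-like cells, and Igf1r was lowest in APOE2 macrophage-like cells.

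The genes lie at separate places of the mouse genome (GENCODE vM21, GRCm38), except for a pair of neighbours. Igf1 (ENSMUSG00000020053) is on chromosome 10 from 87858265 to 87937042, and Igf1r (ENSMUSG00000005533) on chromosome 7 from 67952827 to 68233668. Igfbp2 (ENSMUSG00000039323, chromosome 1 from 72824503 to 72852474) and Igfbp5 (ENSMUSG00000026185, chromosome 1 from 72857932 to 72874884) are separated by 5457 bases and are transcribed from opposite strands. Igfbp3 (ENSMUSG00000020427) is on chromosome 11 from 7206086 to 7213923, beside Igfbp1, and Igfbp4 (ENSMUSG00000017493) is on the same chromosome from 99041244 to 99054392. Igfbp6 (ENSMUSG00000023046) is on chromosome 15 from 102144362 to 102149511, and Igfbp7 (ENSMUSG00000036256) on chromosome 5 from 77349240 to 77408041. Igf1r is the longest, with 280842 bases of which 5.98% are exon.

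The 100 bases before the transcription start in RefSeq (GRCm38.p6) are shown for Igfbp3 and Igfbp4, found mainly in fibroblast-like cells, and for Igfbp2 and Igfbp7, found mainly in smooth muscle-like cells, because the members differ in the core promoter motifs found there. Capitals mark a TATA motif (TATAAA or TATATA) or a GC box (GGGCGG), each searched on both strands, and no match overlapped another.
Igfbp3 (chr11:7213924-7214023, minus strand): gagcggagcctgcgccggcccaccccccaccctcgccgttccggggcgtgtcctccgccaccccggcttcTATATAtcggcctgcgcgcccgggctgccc
Igfbp4 (chr11:99041144-99041243, plus strand): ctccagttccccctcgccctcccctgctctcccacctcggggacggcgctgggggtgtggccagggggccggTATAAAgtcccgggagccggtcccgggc
Igfbp2 (chr1:72824380-72824479, plus strand): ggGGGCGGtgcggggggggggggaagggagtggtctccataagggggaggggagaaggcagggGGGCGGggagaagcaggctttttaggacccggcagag
Igfbp7 (chr5:77408046-77408145, minus strand): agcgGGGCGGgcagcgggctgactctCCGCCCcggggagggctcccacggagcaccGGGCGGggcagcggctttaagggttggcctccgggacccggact

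The TATA motif began 30 bases before the start in Igfbp3 and 28 bases before it in Igfbp4, and was in none of the other 6 windows, against 7.03% of 32851 mouse promoter windows of this length. A GC box was in Igfbp2 (2 matches), Igfbp7 (3 matches) and Igf1r (2 matches), against 24.7% of all windows. Neither motif was in the windows of Igf1, Igfbp5 and Igfbp6. Igfbp2 has more than 1 listed start, and the start nearest to that of GENCODE was used.

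The counts covered 28506 barcodes, and 26757 cells with at least 200 detected genes and under 20% mitochondrial transcripts were kept, 11772 from APOE2, 6737 from APOE3 and 8248 from APOE4. They held between 124926887 and 168310501 unique molecular identifiers (UMIs, 1 for each captured transcript) per library, and between 14 and 27 barcodes occurred in both of any pair of libraries. Of 26 clusters, C0 to C25, made without the 8 genes, 16 took a class from marker genes. These gave 12447 smooth muscle-like, 2726 fibroblast-like, 702 macrophage-like and 206 endothelial-like cells, with 346 T lymphocyte-like, 73 neutrophil-like, 317 B lymphocyte-like and 99 erythroid-like cells, and 9841 cells remained unnamed. A level is the UMIs of a gene per 1000000 UMIs of the cells summed (CPM), with an exact Poisson 95% interval, and a difference is a log2 ratio of CPM with an exact conditional 95% interval. With 1 library for each genotype there was no replicate and no test, and all intervals cover counting error only. A difference between mice, pools or preparations therefore cannot be told apart from a difference between alleles. CPM is a share of all transcripts, so the same gene was compared between cells, and the 8 genes were not ranked against each other.

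**Figure D1:**
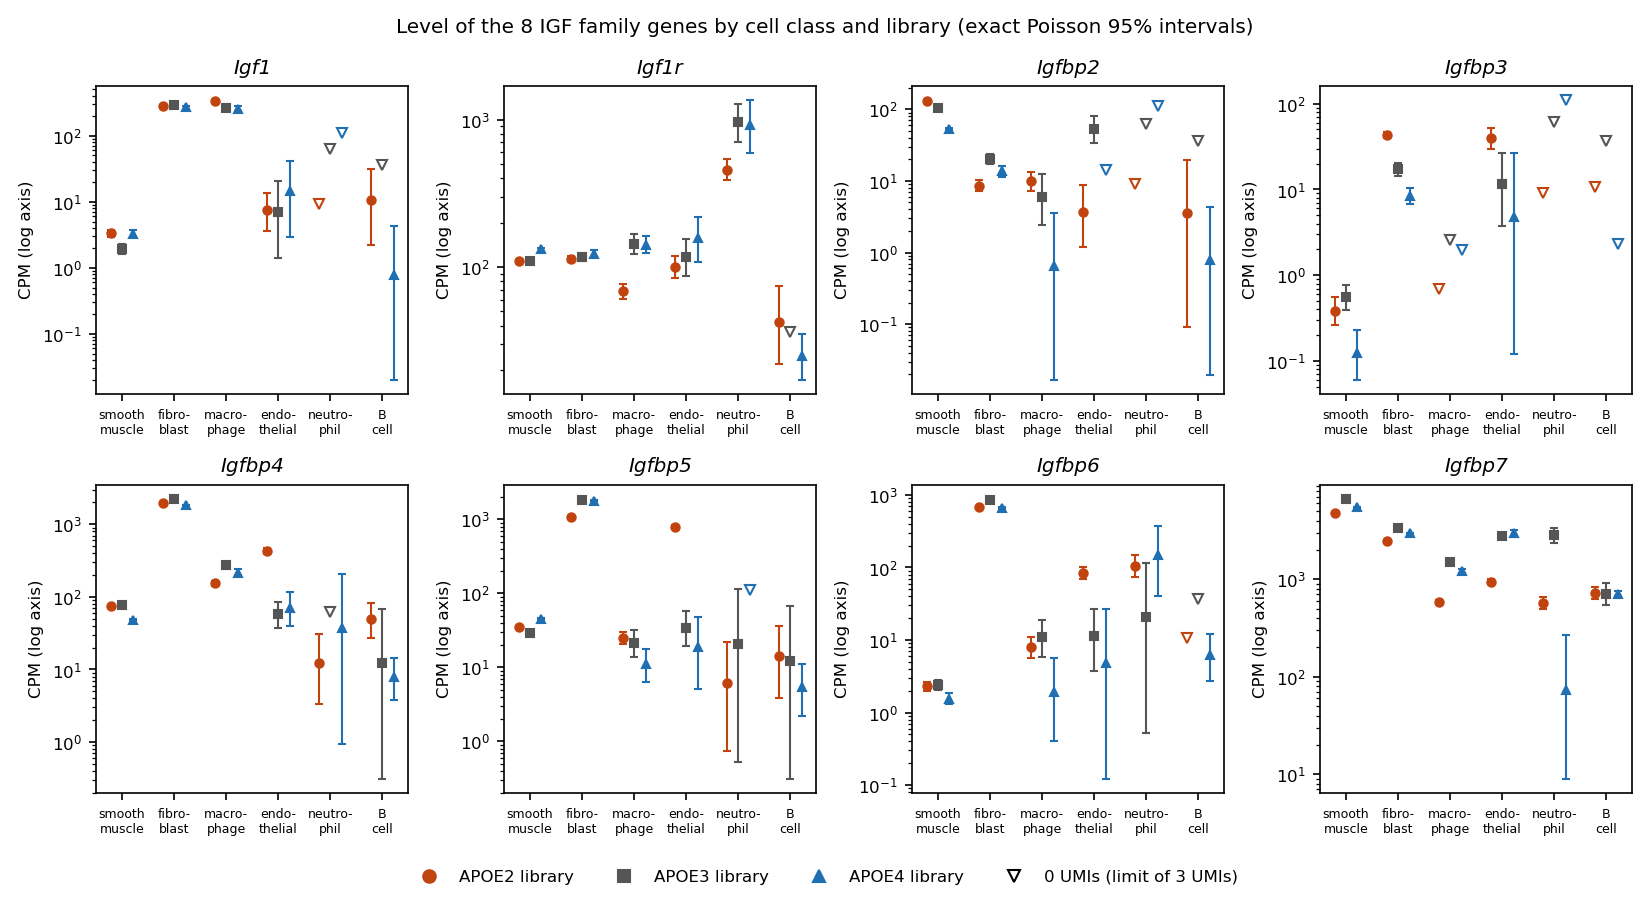
CPM of each of the 8 genes (log axis) in 6 cell classes, with 1 point per library and exact Poisson 95% intervals. Open triangles stand at the limit that 0 UMIs allow (3 UMIs). Igf1 was highest in the fibroblast and macrophage classes, Igfbp3 to Igfbp6 in fibroblasts within each library, and Igfbp7 in smooth muscle. The endothelial value of Igfbp3 in APOE2 (39.3 CPM) lay close to that of fibroblasts (42.9 CPM). The endothelial value of Igfbp5 in APOE2 rests on 7 cells.

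Igf1 was a transcript of fibroblast-like and macrophage-like cells, which held 66.1% and 15.8% of its 13506 UMIs over all cells. In fibroblast-like cells it stood at 276.5 CPM in the APOE2 library (268 to 285), 290.4 CPM in the APOE3 library (279 to 302.5) and 266 CPM in the APOE4 library (256 to 276). In macrophage-like cells it stood at 327.5 CPM in the APOE2 library (311 to 345), 264 CPM in the APOE3 library (235 to 295) and 256.5 CPM in the APOE4 library (232 to 283). Fibroblast-like levels lay close together in the 3 libraries, and the macrophage-like level was highest in APOE2, with a log2 ratio of APOE2 to APOE3 of 0.31 (0.13 to 0.49). Smooth muscle-like cells were far lower, at 3.35 CPM in APOE2, 1.94 in APOE3 and 3.25 in APOE4.

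The smooth muscle-like Igf1 UMIs were not spread over the class. C12, a small cluster led by Adamtsl1, Mdga2 and Prss12, held 128 of the 259 UMIs in APOE2, 73 of 136 in APOE3 and 217 of 261 in APOE4. The class ratios were 0.79 (0.48 to 1.095) for APOE2 to APOE3 and 0.74 (0.44 to 1.05) for APOE4 to APOE3. Of these, the APOE4 to APOE3 ratio rests largely on C12, and it was −1.10 at a finer Louvain resolution of 1.6. Within the macrophage-like class, cells with Lyve1, Folr2 and Cd163 transcripts, which mark resident macrophages of the vessel wall, had Igf1 at 314 CPM in APOE2, 302 in APOE3 and 238 in APOE4. Cells with Spp1, Gpnmb and Fabp5 transcripts, known from lipid-laden macrophages, had 412 CPM in APOE2, where 73 of the 80 such cells were found. The other cells of the class had 268 CPM in APOE2, 174 in APOE3 and 353 in APOE4. Beside them the Lyve1, Folr2 and Cd163 cells were not consistently the higher. The Spp1, Gpnmb and Fabp5 cells were the highest in APOE2. Over the 3 libraries these had 377 CPM (344 to 412), against 291 (275 to 309) in Lyve1, Folr2 and Cd163 cells and 270 (247 to 295) in the others. APOE3 held only 2 and APOE4 only 5 of the Spp1, Gpnmb and Fabp5 cells.

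Igf1r, the receptor, was found in every class with less spread than the ligand. Over the 3 libraries it stood at 118 CPM in smooth muscle-like, 117 in fibroblast-like, 110.0 in endothelial-like and 97.1 in macrophage-like cells. The first 3 of these did not differ beyond their counting intervals. Lower levels were those of B lymphocyte-like cells, at 26.75 CPM, and of erythroid-like cells, at 10.6 CPM from only 7 UMIs. For each 1000 UMIs of Acta2, smooth muscle actin, these 2 classes had 6.7 and 7.76 of Igf1r, beside 4.54 in smooth muscle-like cells. The part of smooth muscle RNA in their Igf1r levels was not tested. Smooth muscle-like cells had 109.5 CPM in the APOE2 library (107 to 112), 109.8 CPM in the APOE3 library (107 to 112) and 132 CPM in the APOE4 library (129.5 to 134.5). The APOE4 level was above both others with a log2 ratio of 0.27 against APOE3 (0.22 to 0.31) and of 0.27 against APOE2 (0.23 to 0.31), under the 1.5-fold used to call a difference here. APOE4 was also the highest in cells split by position, with 139 CPM in APOE4 against 111 in APOE2 and 113 in APOE3 where Hand2 was detected, and 133 against 114 and 109 where Hox genes were. Of 20 clusters in which the 3 libraries could be ordered, Igf1r was highest in APOE4 in 15. These clusters, with the endothelial-like C20 among them, share the 3 libraries and are not independent.

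In macrophage-like cells Igf1r stood at 68.7 CPM in the APOE2 library (61.2 to 76.9), 144 CPM in the APOE3 library (123 to 167) and 142 CPM in the APOE4 library (124 to 162). APOE2 was the low library, with a log2 ratio of −1.06 against APOE3 (−1.34 to −0.78), and APOE4 stood 1.05 (0.79 to 1.31) above APOE2. Without C22, a macrophage-like cluster of few UMIs per cell (median 1063), the levels in C14 were 67.9 CPM in APOE2, 146 in APOE3 and 148 in APOE4. Within the cells with Lyve1, Folr2 and Cd163 transcripts the level was again lowest in APOE2, at 89.5 CPM against 164 in APOE3 and 155 in APOE4. Over the 3 libraries these cells had 122 CPM of Igf1r, cells with Spp1, Gpnmb and Fabp5 transcripts 29.8 and the other cells 91.5. Of the 80 cells with Spp1, Gpnmb and Fabp5 transcripts, 73 came from APOE2, and their part in the class ratio was not tested. The smooth muscle markers summed to 7365 CPM in the macrophage-like cells of APOE2, 14180 in APOE3 and 11990 in APOE4, the same order as Igf1r, and their part in the difference was not tested. The highest Igf1r levels of any class were those of neutrophil-like cells, at 458 CPM in 56 APOE2 cells, 964 in 10 APOE3 cells and 919 in 7 APOE4 cells. Thinned to 1000 UMIs, 18 of 56, 8 of 9 and 3 of 6 of these cells had an Igf1r UMI. Among the smooth muscle clusters the highest was C9, with 375 CPM in APOE2, 314 in APOE3 and 325 in APOE4, a cluster of few UMIs per cell (median 3948) in which the nuclear RNA Malat1 reached 57840 CPM.

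**Figure D2:**
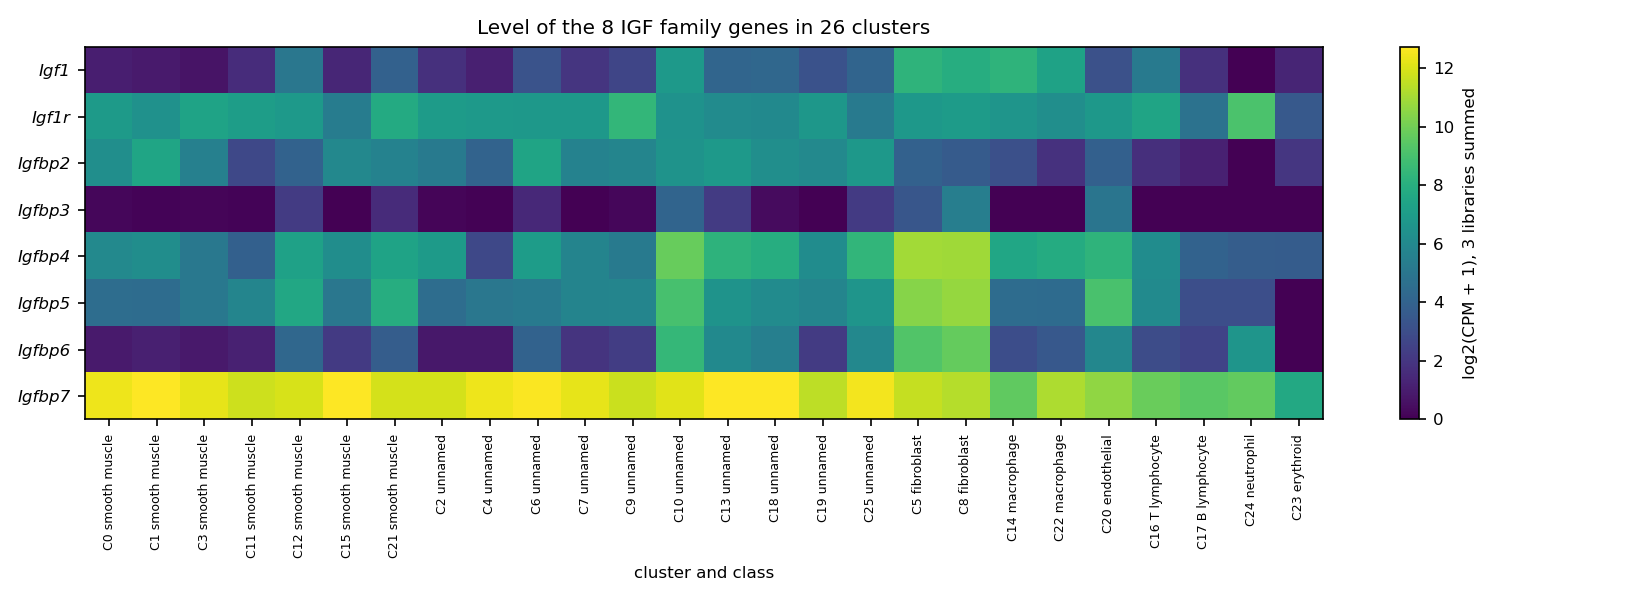
Level of each gene as log2(CPM + 1) in the 26 clusters, with the 3 libraries summed and clusters ordered by class. The fibroblast clusters C5 and C8 are bright for Igf1 and Igfbp4 to Igfbp6. C8 is the brightest for Igfbp3, followed by C20 (endothelial). C1 and C6 are the brightest for Igfbp2, and C24 (neutrophil) and C9 for Igf1r.

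Among the binding proteins, Igfbp2 encodes a carrier that also binds integrins. Smooth muscle-like cells held 65.4% of its UMIs, at 132 CPM in the APOE2 library (130 to 135), 105 CPM in the APOE3 library (103 to 108) and 52.8 CPM in the APOE4 library (51.2 to 54.4). APOE4 was the low library, with a log2 ratio of −0.997 against APOE3 (−1.05 to −0.94) and −1.33 against APOE2 (−1.38 to −1.27). Over the 13 clusters with the smooth muscle markers, named or not (20392 cells, a sum added after the data were seen), the levels were 98.4, 101 and 58.9 CPM, and the ratios of APOE4 were −0.78 to APOE3 and −0.74 to APOE2.

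The level differed with the position of the cells along the aorta. Smooth muscle cells of the arch are known to express Hand2, and those of the descending aorta Hox genes, and among the 20392 cells of the 13 clusters, 3681 Hand2 positive cells were set against 6679 Hox positive cells, each with at least 2 UMIs of its marker genes. Igfbp2 in Hand2 positive cells stood at 160 CPM in the APOE2 library (156 to 163), 220.2 CPM in the APOE3 library (214 to 226) and 110.2 CPM in the APOE4 library (105 to 116). In Hox positive cells it stood at 41.9 CPM in the APOE2 library (39.7 to 44.1), 33.8 CPM in the APOE3 library (32.0 to 35.5) and 42.1 CPM in the APOE4 library (40.4 to 43.9). The Hand2 positive level was the higher in all 3 libraries. The ratio of APOE4 to APOE3 was −0.998 (−1.08 to −0.92) in Hand2 positive cells and turned to 0.32 (0.22 to 0.42) in Hox positive cells.

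The libraries differed in their shares of these subsets. Hand2 positive cells carried 32.9% of the smooth muscle UMIs of the APOE2 library, 23.6% in APOE3 and 13.2% in APOE4, and Hox positive cells 25.4%, 42.2% and 50.9%. With both subsets and the remaining cells given the same weight in every library, Igfbp2 was at 86.0 CPM in APOE2, 104 in APOE3 and 66.5 in APOE4. The log2 ratio of APOE4 was then −0.64 to APOE3 and −0.37 to APOE2, so the second of these no longer passed 1.5-fold. The split needs UMIs of the marker genes, 1499 of the Hand2 positive cells stood at the minimum, and deeper cells pass it more easily.

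**Figure D3:**
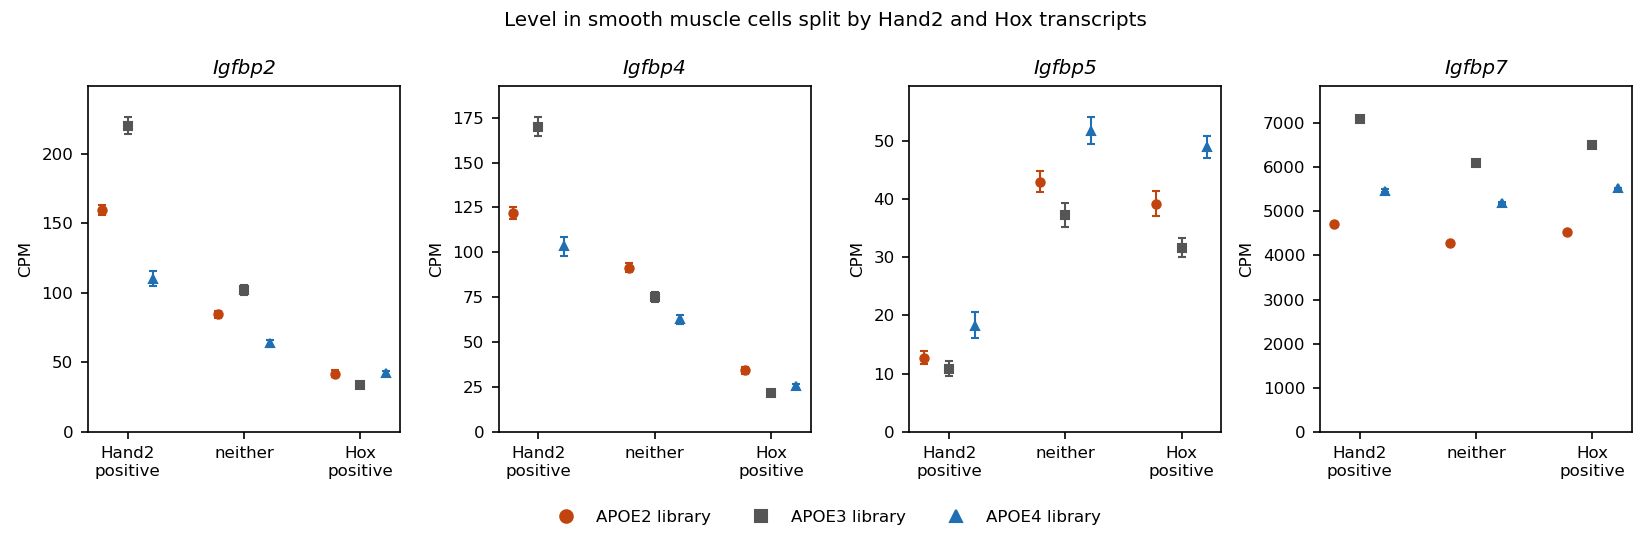
CPM of Igfbp2, Igfbp4, Igfbp5 and Igfbp7 (linear axes from 0) in smooth muscle cells with Hand2 transcripts, with Hox transcripts or with neither, by library, with exact Poisson 95% intervals. Igfbp2 and Igfbp4 are highest in Hand2 positive and lowest in Hox positive cells in every library, Igfbp5 is lowest in Hand2 positive cells, and Igfbp7 keeps its order of libraries in each subset.

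Igfbp2 transcripts were concentrated in few cells. In smooth muscle-like cells the 5% of cells with the most Igfbp2 held 81.8% of its UMIs in the APOE2 library, 75.4% in APOE3 and 76.1% in APOE4, and a single APOE3 cell held 679. Thinned to 1000 UMIs, 5.39% of cells had a UMI in APOE2, 5.55% in APOE3 and 3.43% (2.91 to 4.01) in APOE4, against 0.259%, 0.79% and 0 of 933 of the fibroblast-like cells. Without thinning, cells with at least 10000 UMIs and at least 1000 CPM of Igfbp2, limits chosen after the values were seen, were counted over the 13 clusters. They were 128 of 5970 in APOE2 (2.14%, 1.79 to 2.54), 82 of 4252 in APOE3 (1.93%, 1.54 to 2.39) and 42 of 5064 in APOE4 (0.829%, 0.598 to 1.12). These cells held 60.6%, 52.9% and 34.5% of the Igfbp2 UMIs of all cells at that depth.

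Without those cells, the level was 43.0 CPM in APOE2, 49.1 in APOE3 and 40.9 in APOE4 over the remaining cells of at least 10000 UMIs. In Hand2 positive cells the remaining level was 63.9 CPM in APOE2, 103 in APOE3 and 78.3 in APOE4, so that APOE2 was then the lowest. Since the cells were removed by their Igfbp2 level, these values are a description only. They made up 3.77% of Hand2 positive cells in APOE2, 5.33% in APOE3 and 2.01% in APOE4, and between 0.44% and 0.515% of Hox positive cells. In C1, a smooth muscle-like cluster led by Igfbp2 itself and contractile genes (Des, Actg2, Myl9, Acta2), they made up 6.81% of cells in APOE2, 3.26% in APOE3 and 1.21% in APOE4. Within C6, which kept smooth muscle markers and was led by Spp1, Vcam1, Lcn2 and Timp1, the order was another one, with 2.34% in APOE2, 6.67% in APOE3 and 4.13% in APOE4. The Igfbp2 level of C1 was 273 CPM in APOE2, 166 in APOE3 and 91.1 in APOE4, and that of C6 was 113, 245 and 203 CPM. C1 and C6 thus differed in which library was lowest.

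**Figure D4:**
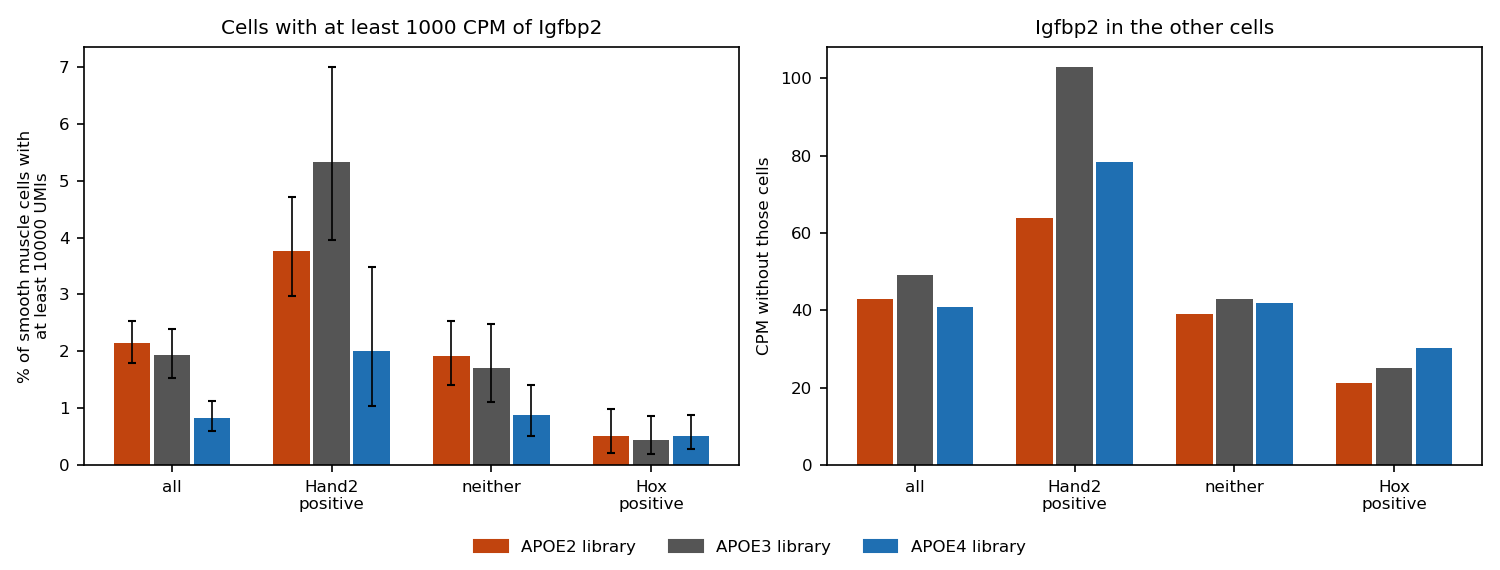
Share of smooth muscle cells of at least 10000 UMIs that held at least 1000 CPM of Igfbp2 (left, with exact Clopper-Pearson 95% intervals) and the Igfbp2 level of the remaining cells (right), by library, in all such cells and by subset. The share was lowest in APOE4 in all cells (0.829%) and in Hand2 positive cells (2.01%), and in the remaining Hand2 positive cells APOE2 was the lowest.

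Igfbp2 outside smooth muscle was low and uneven. The fibroblast-like cells of APOE2 held 122 UMIs, those of APOE3 162 and those of APOE4 139, of which 89, 52 and 90 came from 1 cell each. Macrophage-like cells held 44, 7 and 1 UMIs.

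Igfbp4, whose product is released from IGFs by the protease pregnancy-associated plasma protein A, was highest in fibroblast-like cells, and over the 3 libraries stood at 187 CPM in macrophage-like and 66.1 CPM in smooth muscle-like cells. Fibroblast-like cells had 1973 CPM in the APOE2 library (1949 to 1996), 2200.0 CPM in the APOE3 library (2167 to 2233) and 1829 CPM in the APOE4 library (1803 to 1855), and all 3 ratios were within 1.5-fold. Smooth muscle-like cells had 74.9 CPM in the APOE2 library (73.0 to 76.8), 76.9 CPM in the APOE3 library (74.9 to 79.0) and 48.3 CPM in the APOE4 library (46.8 to 49.8). APOE4 was again the low library, with log2 ratios of −0.67 against APOE3 (−0.73 to −0.61) and −0.63 against APOE2 (−0.69 to −0.575).

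As with Igfbp2, Hand2 positive cells had more Igfbp4, at 122 CPM in APOE2, 170 in APOE3 and 103 in APOE4, against 34.2, 21.8 and 25.4 CPM in Hox positive cells. The ratio of APOE4 to APOE3 was −0.72 (−0.80 to −0.63) in the former and 0.22 (0.10 to 0.34) in the latter, and −0.41 with equal weights. In macrophage-like cells Igfbp4 stood at 154 CPM in the APOE2 library (143 to 166), 272 CPM in the APOE3 library (243 to 303) and 214 CPM in the APOE4 library (192 to 239), with APOE2 lower than APOE3 by a log2 ratio of −0.82 (−1.01 to −0.62). Within the Lyve1, Folr2 and Cd163 cells, which had 260 CPM in APOE2, 351 in APOE3 and 262 in APOE4, that ratio was −0.43 (−0.64 to −0.22), under 1.5-fold. The Spp1, Gpnmb and Fabp5 cells, found mostly in APOE2, had 63.4 CPM of Igfbp4 over the 3 libraries. The remaining macrophage-like cells had 80.3 CPM. In the 87 cells that were endothelial by their own markers, Igfbp4 stood at 404 CPM (360.2 to 451) over the 3 libraries, of which 64 cells came from APOE2.

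Igfbp3, the main carrier of IGFs in blood, had the largest ratios between libraries in fibroblast-like cells. In fibroblast-like cells it stood at 42.9 CPM in the APOE2 library (39.6 to 46.5), 17.1 CPM in the APOE3 library (14.4 to 20.3) and 8.44 CPM in the APOE4 library (6.75 to 10.4), from 607, 136 and 86 UMIs. APOE2 was the high and APOE4 the low library, with log2 ratios of 1.33 (1.05 to 1.604) for APOE2 to APOE3, −1.02 (−1.43 to −0.62) for APOE4 to APOE3 and −2.35 (−2.69 to −2.02) for APOE4 to APOE2. After thinning to 1000 UMIs, an Igfbp3 UMI was found in 2.59% of these cells in APOE2 (1.75 to 3.67). The share was 2.21% in APOE3 (1.21 to 3.68) and 0.857% in APOE4 (0.371 to 1.68). The shares of APOE2 and APOE3 did not differ beyond their intervals. In the endothelial-like class Igfbp3 stood at 29.6 CPM (22.55 to 38.2) over the 3 libraries, beside 25.7 CPM (24.0 to 27.5) in fibroblast-like cells. Of the 59 endothelial-like UMIs, 53 came from APOE2. In cells that were endothelial by their own markers Igfbp3 stood at 17.9 CPM (9.80 to 30.1), from 14 UMIs. The smooth muscle-like class held 30, 39 and 10 UMIs, and no UMI was found in macrophage-, T lymphocyte-, B lymphocyte-, neutrophil- or erythroid-like cells, which in macrophage-like cells allows up to 0.687 CPM in APOE2, 2.56 in APOE3 and 1.95 in APOE4.

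By clusters, the Igfbp3 difference lay in 1 of the 2 fibroblast-like clusters and in few cells. C5, led by Inmt, Fmod and Tgfbi, had 9.12 CPM in APOE2, 9.49 in APOE3 and 10.4 in APOE4, which do not differ beyond their intervals. C8, led by Opcml, Gfpt2, Prg4 and Pi16, had 65.8 CPM in the APOE2 library (60.4 to 71.5), 28.5 CPM in the APOE3 library (22.9 to 35.0) and 5.22 CPM in the APOE4 library (3.19 to 8.07). Igfbp3 was detected in 61 of 608 cells of C8 in APOE2, 19 of 219 in APOE3 and 2 of 293 in APOE4, where 1 cell held 19 of the 20 UMIs. C8 held 608 of the 1160 fibroblast-like cells of APOE2, while C5 held most of them in APOE3 (414 of 633) and APOE4 (640 of 933), so that the class differs in makeup between the libraries. Split by marker genes in place of clusters, the order of the libraries was the same in both subsets. Levels were 23.2, 7.07 and 2.60 CPM in cells with Pi16, Dpp4 and Sema3c transcripts and 86.1, 34.8 and 22.4 CPM in cells with Hhip and Inmt transcripts. The Hhip and Inmt cells held 375 Igfbp3 UMIs and C5 held 163, so this subset does not match C5. Fibroblast-like cells of neither subset stood at 55.6 CPM over the 3 libraries, from 175 UMIs.

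Among fibroblast-like cells, Igfbp5, whose product binds extracellular matrix, was lowest in APOE2, the library in which the class level of Igfbp3 was highest. Fibroblast-like cells had 1095 CPM in the APOE2 library (1078 to 1113), 1857 CPM in the APOE3 library (1827 to 1887) and 1778 CPM in the APOE4 library (1753 to 1804). APOE2 was the low library, by a log2 ratio of −0.76 against APOE3 (−0.79 to −0.73), and APOE4 stood 0.70 (0.67 to 0.73) above APOE2. Thinned to 1000 UMIs, 29.1% of fibroblast-like cells (26.5 to 31.8) had an Igfbp5 UMI in APOE2, as did 43.8% of those of APOE3 (39.9 to 47.7) and 45.8% of those of APOE4 (42.5 to 49.0), against 0.531%, 0.901% and 0.68% of macrophage-like cells. Without thinning the fibroblast-like shares were 51.9%, 70.3% and 72.0%.

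Igfbp5 was lowest in APOE2 in both fibroblast-like clusters, but past 1.5-fold in C8 and not in C5. C5 had 1178 CPM in APOE2, 1510.0 in APOE3 and 1401 in APOE4. There APOE2 stood at a log2 ratio of −0.36 against APOE3 (−0.41 to −0.31). C8 had 1039, 2372 and 2406 CPM, with a ratio of −1.19 (−1.235 to −1.15). Split by marker genes, APOE2 was below both others by more than 1.5-fold in cells with Pi16, Dpp4 and Sema3c transcripts, at 1266 CPM against 2184 and 2003, and in cells with Hhip and Inmt transcripts, at 793 CPM against 1515 and 1380.0. The 10 fibroblast markers summed to 25610 CPM in the class in APOE2, 35480 in APOE3 and 32600 in APOE4, the same order as Igfbp5, and the part of these markers in the difference was not tested.

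Smooth muscle-like cells had far less Igfbp5, at 35.4 CPM in the APOE2 library (34.0 to 36.7), 29.1 CPM in the APOE3 library (27.8 to 30.4) and 45.2 CPM in the APOE4 library (43.7 to 46.7). APOE4 was the high library, with a log2 ratio of 0.64 (0.56 to 0.72) to APOE3. The position of the cells mattered in the other direction than for Igfbp2, since Hand2 positive cells had 12.8, 10.8 and 18.2 CPM and Hox positive cells 39.1, 31.6 and 48.9 CPM. The APOE4 level was the highest in both subsets, by 0.75 (0.49 to 1.00) and 0.63 (0.53 to 0.73) to APOE3. C12 was the smooth muscle-like cluster with the most Igfbp5 in all 3 libraries among those with over 5 cells in each, at 179, 212 and 207 CPM. In the endothelial-like class Igfbp5 stood at 781 CPM in APOE2, but 98.4% of those UMIs were in 7 of 138 cells. In the cells that were endothelial by their own markers it stood at 3.84 CPM.

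Igfbp6, a carrier with a preference for IGF2, was the most restricted to fibroblasts, with 81.3% of its UMIs in the fibroblast-like class. It stood at 676 CPM in the APOE2 library (662 to 690), 859 CPM in the APOE3 library (838 to 879) and 660 CPM in the APOE4 library (644 to 676), and APOE3 was the highest by under 1.5-fold. C8 was above C5 in each library, at 735 against 589 CPM in APOE2, 1102 against 695 in APOE3 and 806 against 572 in APOE4. Smooth muscle-like cells had 2.31, 2.43 and 1.55 CPM. The APOE4 to APOE3 ratio there, −0.64 (−0.99 to −0.30), rests on 125 and 170 UMIs and turned to 0.45 when cells were classed by their own markers. In Hox positive cells, drawn from all 13 clusters with smooth muscle markers, Igfbp6 was highest in APOE2. It stood there at 9.53 CPM (8.50 to 10.6) against 1.49 in APOE3 and 1.16 in APOE4. C6, an unnamed one of these clusters, held 417 Igfbp6 UMIs over the 3 libraries, beside 474 in the whole smooth muscle-like class. The part of C6 in the difference was not tested.

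Igfbp7, a secreted protein of vessel walls with low affinity for IGFs, was found in nearly every smooth muscle-like cell. Thinned to 1000 UMIs, 95.9% of smooth muscle-like cells had an Igfbp7 UMI in APOE2, 99.2% in APOE3 and 98.1% in APOE4. Its level was 4771 CPM in the APOE2 library (4756 to 4787), 6642 CPM in the APOE3 library (6623 to 6661) and 5459 CPM in the APOE4 library (5443 to 5475). APOE3 was the highest and APOE2 the lowest, with a log2 ratio of −0.48 (−0.48 to −0.47) for APOE2 to APOE3, under 1.5-fold. The order held in Hand2 positive cells, at 4704, 7096 and 5470.0 CPM, and in Hox positive cells, at 4530.0, 6495 and 5521 CPM, and the first of these passed 1.5-fold for APOE2 to APOE3 (−0.59, −0.60 to −0.58). Across 21 clusters, Igfbp7 was highest in APOE3 in 18 and lowest in APOE2 in 18. These clusters share the 3 libraries and are not independent, and they include endothelial-like, macrophage-like and T lymphocyte-like clusters. By the same count, Igfbp2 was lowest in APOE4 in 12 of 18 clusters and in APOE2 in 6.

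Fibroblast-like cells had 2471 CPM of Igfbp7 in APOE2, 3364 in APOE3 and 2952 in APOE4. Macrophage-like cells had 586 CPM in the APOE2 library (563 to 609), 1499 CPM in the APOE3 library (1430.0 to 1571) and 1221 CPM in the APOE4 library (1166 to 1277), a log2 ratio of APOE2 to APOE3 of −1.36 (−1.44 to −1.27). The smooth muscle marker sums given above for these cells had the same order, and the 5% of macrophage-like cells with the most Igfbp7 held between 66.0% and 69.2% of its UMIs. When cells were classed by their own markers the ratio turned to 0.44. For each 1000 UMIs of Acta2, smooth muscle actin, there were 216 of Igfbp7 in smooth muscle-like cells, 212 in macrophage-like, 211 in T lymphocyte-like and 180 in B lymphocyte-like cells, but 1370 in fibroblast-like cells. The macrophage-like and T lymphocyte-like cells carried Igfbp7 and Acta2 in nearly the ratio of smooth muscle, and fibroblast-like cells did not.

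Counted together, 5 of the 7 members with at least 50 UMIs passed 1.5-fold between APOE4 and APOE3 in smooth muscle-like cells (Igf1 and Igfbp5 higher, Igfbp2, Igfbp4 and Igfbp6 lower), against 10.6% of all genes. Between APOE2 and APOE3 it was 1 of 8 (Igf1), against 9.51% of all genes, and between APOE4 and APOE2 it was 2 of 7 (Igfbp2 and Igfbp4), against 14.7%. Over the 13 clusters with smooth muscle markers the counts were 5 of 8 for APOE4 to APOE3 (11.6% of all genes), 3 of 8 for APOE2 to APOE3 (12.8%) and 4 of 8 for APOE4 to APOE2 (18.0%). At a limit of 2-fold the smooth muscle-like counts were 0 for both comparisons with APOE3, the Igfbp2 ratio of −0.997 being just short of that limit, and 1 for APOE4 to APOE2. The share of all genes past 2-fold is not given here. The comparisons share libraries and are not independent of each other.

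In fibroblast-like cells, 3 of 8 members passed 1.5-fold for APOE2 to APOE3 (Igfbp3 higher, Igfbp2 and Igfbp5 lower), against 11.1% of all genes. The counts were 1 of 8 for APOE4 to APOE3 (Igfbp3 lower; 10.5% of all genes) and 3 of 8 for APOE4 to APOE2 (Igfbp2 and Igfbp5 higher, Igfbp3 lower; 14.0%). In macrophage-like cells, 4 of 6 passed for APOE2 to APOE3 (Igfbp2 higher, Igf1r, Igfbp4 and Igfbp7 lower), against 19.2% of all genes, 0 of 4 for APOE4 to APOE3 (18.3%) and 3 of 5 for APOE4 to APOE2 (Igf1r and Igfbp7 higher, Igfbp5 lower; 21.0%). The macrophage-like Igfbp2 and Igfbp5 ratios rest on few UMIs, and for Igfbp5 on 1 APOE2 cell with 70 of the 109 UMIs. The macrophage-like Igfbp7 ratio of APOE2 to APOE3 turned the other way when cells were classed by their own markers. The count of 4 was then lower. The fibroblast-like Igfbp2 ratios rest on few cells. There 1 cell held 89 of the 122 UMIs in APOE2, 52 of 162 in APOE3 and 90 of 139 in APOE4.

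**Figure D5:**
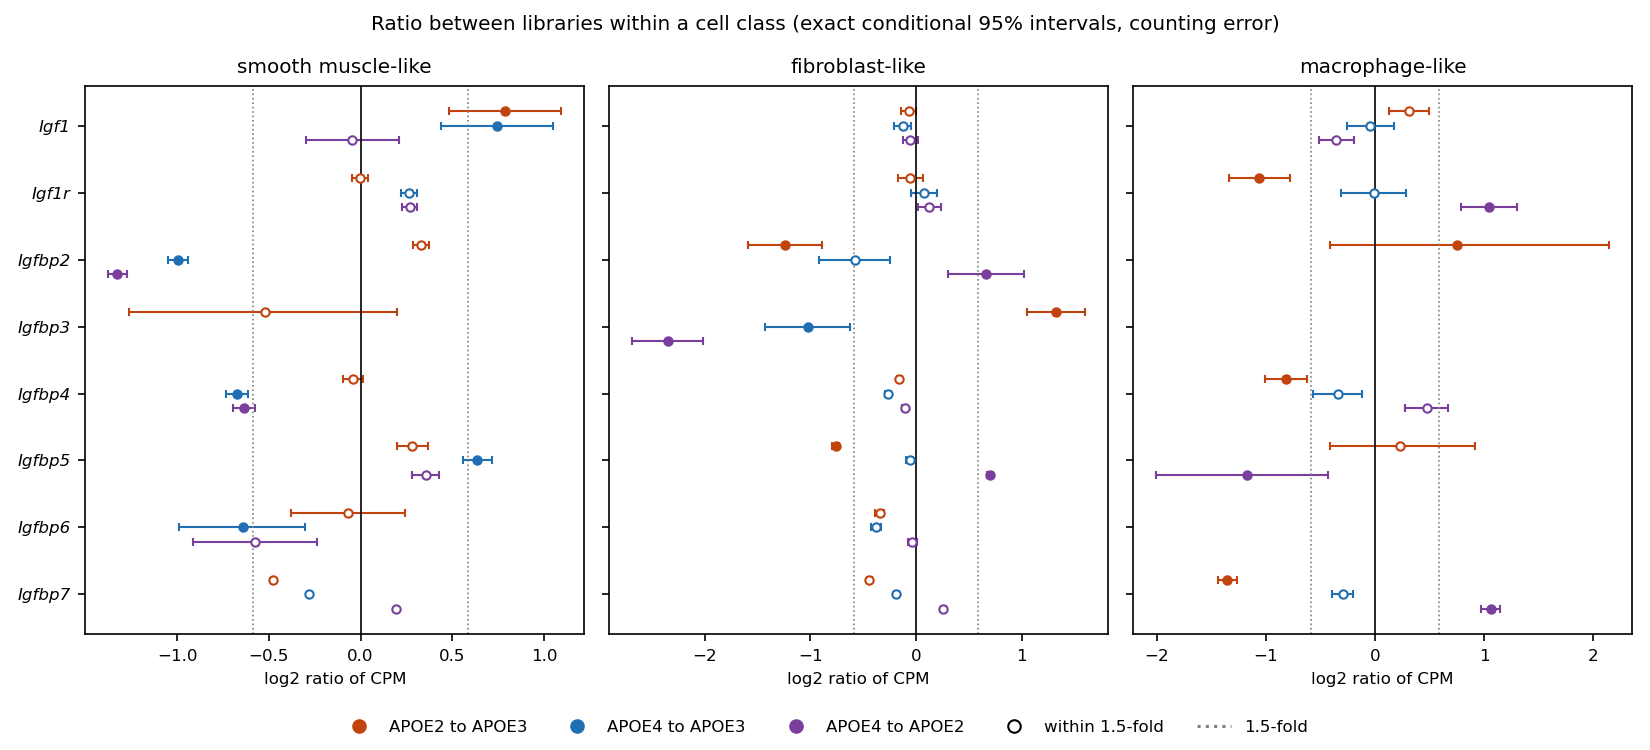
Log2 ratio of CPM between libraries for each gene in smooth muscle-like, fibroblast-like and macrophage-like cells, with exact conditional 95% intervals. Filled points passed 1.5-fold (dotted lines), and comparisons with under 50 UMIs in both libraries together are left out. The largest ratio drawn is that of Igfbp3 for APOE4 to APOE2 in fibroblasts (−2.35), and Igf1 and Igfbp6 in fibroblasts stay within the dotted lines.

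Of 35 other genes of the IGF pathway (Igf2, further receptors and binding proteins, binding protein proteases and their inhibitors, adaptors, kinases and targets), 30 had at least 50 UMIs in smooth muscle-like cells. For APOE2 to APOE3, 5 were past 1.5-fold higher and 0 lower (16.7%, against 9.51% of all genes), for APOE4 to APOE3 3 higher and 0 lower (10.0% against 10.6%), and for APOE4 to APOE2 6 higher and 2 lower (26.7% against 14.7%). In fibroblast-like cells 2 of 29 were higher and 2 lower for APOE2 to APOE3 (13.8% against 11.1%), 1 of 28 higher and 3 lower for APOE4 to APOE3 (14.3% against 10.5%), and 2 of 29 higher and 5 lower for APOE4 to APOE2 (24.1% against 14.0%). In macrophage-like cells the counts were 2 of 22 higher and 3 lower (22.7% against 19.2%), 2 of 16 higher and 0 lower (12.5% against 18.3%), and 3 of 23 higher and 2 lower (21.7% against 21.0%). Igfbp1, a binding protein of the liver that neighbours Igfbp3, had 0 UMIs in all 3 classes.

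Irs2, an adaptor that carries the IGF1 and insulin receptor signal to phosphoinositide 3-kinase, was higher in APOE4 in all 3 classes. It stood at 152 CPM in APOE4, 78.5 in APOE3 and 73.5 in APOE2 in smooth muscle-like cells (0.95, 0.91 to 1.00, for APOE4 to APOE3), at 70.9, 31.9 and 39.7 CPM in fibroblast-like cells and at 89.6, 54.7 and 45.6 CPM in macrophage-like cells. Irs2 was also among the leading genes of C0, a smooth muscle-like cluster led by the stress genes Dnajb1, Csrnp1 and Atf3. C0 held 1932 of the 4429 smooth muscle-like cells of APOE4, 1154 of 3177 in APOE3 and 1451 of 4841 in APOE2. The part of C0 in the Irs2 difference was not tested. The matrix protease gene Adamts1 stood at 184 CPM in APOE4 against 129 in APOE3 and 108 in APOE2 in smooth muscle-like cells. In macrophage-like cells it stood at 57.1 CPM in APOE4 against 12.8 in APOE3 and 18.8 in APOE2. Htra1, a secreted serine protease that cleaves binding proteins, stood at 226 CPM in APOE2 fibroblast-like cells against 424 in APOE3 and 371 in APOE4, and at 69.4 CPM in APOE2 macrophage-like cells against 140.1 in APOE3 and 119.5 in APOE4. Htra1 stood at 606 CPM in smooth muscle-like cells, the smooth muscle marker sums of the macrophage-like cells had the same order as Htra1 there, and their part in it was not tested. Eif4ebp1, a repressor of translation, was at 75.1 CPM in APOE4, 93.0 in APOE3 and 115 in APOE2 fibroblast-like cells. Insr, the insulin receptor gene, was at 33.2 CPM in APOE2, 51.3 in APOE3 and 35.7 in APOE4 macrophage-like cells.

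Across the 25 clusters with at least 50 cells, the level of each gene was compared with other genes by Pearson's r of log2(CPM + 1). The candidates were 10463 genes less the 8 members, and r is a description of clusters that share libraries and depth. Igf1 was most like Gpnmb (0.954), Rab3il1 (0.93) and Cfb (0.918), and Igf1r most like Ints6l (0.907), Mtmr6 (0.9) and Cnnm2 (0.897). Igfbp2 was most like Fads3 (0.857), Nupr1 (0.844) and Fstl3 (0.841), and Igfbp7 most like Fxyd1 (0.975), Mfge8 (0.969) and Klf15 (0.969). Among the fibroblast genes, Igfbp3 was most like Ahsg (0.942), Col5a3 (0.934) and Wnt2 (0.934), Igfbp4 like Cd34 (0.9), Cfb (0.898) and Fxyd6 (0.887), Igfbp5 like Pir (0.95), Plscr4 (0.931) and Slc43a3 (0.925), and Igfbp6 like Pi16 (0.966), Lbp (0.946) and C3 (0.935). Between members, the values were 0.82 for Igfbp3 and Igfbp5, 0.806 for Igf1 and Igfbp4, and 0.802 for Igfbp2 and Igfbp7. The neighbours Igfbp2 and Igfbp5 had 0.272, and the ligand and its receptor −0.004.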

How the data were processed

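The authors pooled aortic cells by genotype, prepared 1 droplet library per genotype, used Cell Ranger (7.0.1 by the file headers) with the mm10 genome and deposited raw UMI counts per gene and barcode, without normalization. Whether intronic reads were counted is not given in the sources used here.

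Cells were normalized with sctransform 0.4.2, integrated by canonical correlation and clustered by the Louvain method (resolution 0.8, 30 components, 3000 features) in Seurat 5.3.0 and R 4.3.3, with the 8 members left out of the features. A cluster took a class from 19 marker lists when at least 3 markers were raised 2 times over the other cells in at least 10% of its cells. A smooth muscle-like cluster kept at least 8 of 10 markers at no less than 50% of their mean over the data set. It also had under 3 markers of another list raised. Clusters that kept these markers while at least 3 of another list were raised took no class, as with C10, C13, C18 and C25. Clusters stayed unnamed when more of their 10 leading genes were markers of another list, when their depth was over 5 times their libraries' median, or when they were shallower than their libraries' median depth divided by 3 and held no marker of their own among the leading genes. The shallow clusters C15 and C22 had such markers and were named. The endothelial-like class also held cells with Schwann cell markers, so its levels are given without comparisons between libraries. The exception is its cluster C20, which entered the counts of clusters by order of the libraries. Scrublet (scanpy 1.11.5) gave doublet scores, and no cell was removed by them.

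Counts were summed by class and library in Python 3.11.15 (numpy 2.4.6, scipy 1.17.1, pandas 2.3.3), and the figures drawn with matplotlib 3.10.9. A ratio past 1.5-fold with at least 50 UMIs over both libraries was counted as a difference. Intervals of cell shares are exact (Clopper-Pearson, 95%). Hox positive cells were found with Hoxa5, Hoxa6, Hoxa7, Hoxb5, Hoxb6, Hoxb7, Hoxb8, Hoxb9, Hoxc6, Hoxc8 and Hoxc9. The ratio was tested on simulated data, but the outcome is not given here. Where no UMI was found, 3 UMIs were taken as the upper limit. For genes of similar clusters, those with at least 20 CPM in 1 cluster entered, and pathway genes were named when past 1.5-fold with at least 50 CPM in a library. The members and lists were chosen with earlier results of these data known. The human alleles were not used to check the genotype labels here.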

Additional observations from a re-analysis of the deposited data

How the results depend on the processing

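With 1 pooled library per genotype, no alternative could address variation between mice, and low counts limit the values in macrophage-like cells and all values of Igfbp3. No paired analysis was possible because each genotype is 1 library and no test was run. Of 22 ratios past 1.5-fold in the 3 classes, 269 values under the alternatives were computed, and 255 kept their direction. This count does not cover size. Among all member ratios of these classes, 41 moved, 3 reversed and 16 stayed the same with cells classed by their own markers. In merged libraries these numbers were 28, 2 and 31, and at resolution 1.6 they were 25, 2 and 34. With limits of 500 genes and 10% mitochondrial transcripts, 61 stayed the same. The 14 values that changed direction belonged to 9 ratios, and the cause was not tested. For APOE4 to APOE3 in smooth muscle-like cells, the log2 ratio of Igf1 was −1.10 at Louvain resolution 1.6, −0.75 in merged libraries and −0.081 in Hand2 positive cells. That of Igfbp6 was 0.187 at resolution 1.6, 0.797 in merged libraries and 0.451 with cells classed by their own markers. In Hox positive cells Igfbp4 was at 0.217 and Igfbp2 at 0.32, and Igfbp2 for APOE4 to APOE2 at 0.008. In fibroblast-like cells classed by their own markers, Igfbp2 for APOE4 to APOE2 was −1.76. In macrophage-like cells for APOE2 to APOE3, Igfbp2 was −0.867 with the highest Scrublet scores removed and Igfbp7 was 0.436 with cells classed by their own markers. Igfbp5 for APOE4 to APOE2 was 0.284 without the highest Scrublet scores and 0.025 without the highest cell of each library, an alternative added after seeing the data.

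Counts of members past 1.5-fold in smooth muscle-like cells moved as follows. Apart from the 13 clusters, the share of all genes past the limit is not given under these alternatives. The moved counts in this paragraph can therefore not be set against such a share. For APOE2 to APOE3 the count of 1 became 2 at resolution 0.4, 3 at resolution 1.6, 2 with cells classed by their own markers, 0 without the highest Scrublet scores, 3 over the 13 clusters with smooth muscle markers (added after seeing the data), 0 at 2-fold and 2 with the mean of each cell's CPM. For APOE4 to APOE3 the count of 5 became 3 at resolution 0.4, 3 by own markers and 0 at 2-fold. For APOE4 to APOE2 the count of 2 became 4 at resolution 0.4, 5 at resolution 1.6, 5 in merged libraries, 4 by own markers, 4 over the 13 clusters, 1 with the median gene at 0 and 1 at 2-fold. In fibroblast-like cells, the count of 1 for APOE4 to APOE3 became 2 at resolution 1.6, in merged libraries, by own markers and without the highest Scrublet scores. The count of 3 for APOE4 to APOE2 became 1 at 2-fold. That of 3 for APOE2 to APOE3 was also lower at 2-fold, since Igfbp5, at 1095 CPM in APOE2 against 1857 in APOE3, was short of that limit. In macrophage-like cells, the count of 4 for APOE2 to APOE3 became 2 by own markers and 2 at 2-fold, that of 0 for APOE4 to APOE3 became 1 by own markers and 3 with no UMI minimum, and that of 3 for APOE4 to APOE2 became 5 with no UMI minimum.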

Other observations

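Some levels stand outside the comparisons above because they rest on few cells. In the 20 cells that were Schwann-like by their own markers, Igfbp7 stood at 3393 CPM (3037 to 3780.0) and Igf1r at 298 CPM (200 to 428) over the 3 libraries, while Igf1 and Igfbp2 had 0 UMIs. Igfbp3 stood at 72.0 CPM (28.9 to 148), from 7 UMIs, beside 25.7 CPM (24.0 to 27.5) in fibroblast-like cells. These cells held 6 barcodes from APOE2, 4 from APOE3 and 10 from APOE4.

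Neutrophil-like cells of the APOE2 library held 35 Igfbp6 UMIs, those of APOE3 held 1 and those of APOE4 held 4. Thinned to 1000 UMIs, 8 of the 56 APOE2 cells had an Igfbp6 UMI (14.3%, 6.38 to 26.2), whereas none had one of Igfbp3, Igfbp4 or Igfbp5. Of the 10 fibroblast markers, 6 had UMIs in the neutrophil-like cells of APOE2 (583 CPM summed), 5 in those of APOE3 (923 CPM) and 3 in those of APOE4 (331 CPM), with Pdgfra, Dpt, Serpinf1 and Fap at 0 in each, and their part in the Igfbp6 level was not tested. Igf1r in these cells was the highest of any class.

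In T lymphocyte-like cells Igf1 stood at 51.7 CPM in APOE2, 104 in APOE3 and 0 in APOE4. The 9 macrophage markers summed to 1379 CPM, 3858 CPM and 99.8 CPM in the same cells, the same order as Igf1, and their part in it was not tested.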
